A study of Mus musculus with 10 samples.

Results

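The genes described here encode ADP-ribosyltransferases of the PARP family. They were chosen by symbol as Parp1, Parp2, Parp3, Parp8, Parp9, Parp10, Parp11, Parp12, Parp14 and Tiparp, and all 10 were found among the 16936 protein-coding genes of the table. RNA had been sequenced from mouse bone marrow-derived macrophages, obtained from marrow after 7 days in 50 ng/mL of GM-CSF, a cytokine that gives marrow cells features of macrophages and of dendritic cells. Of the 10 samples, 5 were untreated and 5 had received PLG, which the series' design text gives as human plasminogen, for 24 h. The title of the series concerns plasminogen, its lipid cargo and the receptor Tlr2, and the comparison below addresses the response to PLG only, since no sample lacks Tlr2. The labels used here give no strain, sex or age of the mice and do not tie a replicate to an animal or a dish. P-values therefore measure the spread between these samples, which may be technical. Plasminogen and other constituents of the preparation cannot be told apart, because the untreated cells are the sole controls. The labels give no matching time for the untreated cells, so a difference in culture time or handling cannot be told apart from PLG either.

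PARP enzymes take NAD apart and attach its ADP-ribose to proteins or nucleic acids. Parp1 and Parp2 are switched on by DNA breaks and build chains of ADP-ribose that recruit repair factors, while most other members attach a lone unit. Several of the latter, among them Parp9, Parp10, Parp11, Parp12 and Parp14, are known as genes that interferons induce in macrophages and other cells. Tiparp, also called Parp7, is a target gene of the aryl hydrocarbon receptor, a sensor of small aromatic molecules, and restrains that receptor.

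The promoters of 3 members are shown because these genes behaved differently below, Parp11 and Parp12 being higher with PLG and Parp1 not passing the test. Each is the stretch of 250 bases just before the gene's start, from RefSeq on GRCm38.p6. Windows were found for 7 of the 10 members, Parp11 with a pair of them, and Parp9, Parp10 and Parp14 had none. Capitals mark matches, on either strand, to the interferon response element core GAAANNGAA, the STAT palindrome TTCNNNGAA, the NF-kB site core or the xenobiotic response element core GCGTG, the last of which the aryl hydrocarbon receptor binds.
Parp11, chr6:127446590-127446839, plus strand: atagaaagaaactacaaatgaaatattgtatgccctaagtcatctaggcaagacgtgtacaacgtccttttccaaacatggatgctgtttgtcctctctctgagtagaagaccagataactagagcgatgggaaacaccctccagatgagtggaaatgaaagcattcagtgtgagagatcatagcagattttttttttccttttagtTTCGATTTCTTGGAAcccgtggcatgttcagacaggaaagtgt
Parp12, chr6:39118350-39118599, minus strand: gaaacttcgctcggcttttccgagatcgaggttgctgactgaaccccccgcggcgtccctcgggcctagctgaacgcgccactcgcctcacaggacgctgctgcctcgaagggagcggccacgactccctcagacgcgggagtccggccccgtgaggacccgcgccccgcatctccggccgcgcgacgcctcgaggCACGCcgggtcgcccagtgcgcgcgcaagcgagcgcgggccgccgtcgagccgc
Parp1, chr1:180568641-180568890, plus strand: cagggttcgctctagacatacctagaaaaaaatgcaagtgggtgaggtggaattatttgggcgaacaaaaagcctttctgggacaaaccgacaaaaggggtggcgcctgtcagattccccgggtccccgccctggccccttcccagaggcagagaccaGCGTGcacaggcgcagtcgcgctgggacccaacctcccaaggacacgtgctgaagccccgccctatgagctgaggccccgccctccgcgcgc
The Parp11 window shown held 1 interferon element core, starting 43 bases before the gene's start, and 1 STAT palindrome starting 37 bases before it, and the matches overlap. The other Parp11 window, chr6:127453377-127453626, held neither, and the windows of the other 6 members held neither as well. Of all 32851 windows of the same length, 7.13% held the interferon element core and 7.02% the STAT palindrome. The xenobiotic element core lay 54 bases before the start in the Parp12 window and 92 bases before it in that of Parp1. Each of the 7 members with a window, Tiparp among them, held at least 1 such core in a window, Parp11 only in its other window, as did 28.2% of all windows. The core contains the pair CG. Member windows with the core held 16 to 41 such pairs, and the Parp11 window without it held 5. The share of all windows was not matched for these pairs, so the comparison cannot show whether the core is enriched. No member's window held the NF-kB core, which 3.90% of all windows held. These are matches of letters in short windows and show neither binding nor its absence.

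Each sample held between 28426106 and 64214553 reads on the table's genes. All 7 macrophage and myeloid markers averaged at least 1 FPKM in both groups, with a summed level of 5842 to 7357 FPKM in untreated and 2565 to 2777 FPKM in PLG samples. Most of that sum was Lyz2, the lysozyme gene, at 5792 ± 561 and 2000.1 ± 77.9 FPKM. Cd68, Csf1r, Itgam and Mertk were lower as well. Adgre1, the gene of the F4/80 antigen, went the other way, from 80.02 ± 4.80 to 177 ± 9.79 FPKM, and Fcgr1 did not pass. The 5 dendritic cell markers summed to 565 to 691 FPKM in untreated and 905 to 998 FPKM in PLG samples. Among these Ccr7, a chemokine receptor of migrating dendritic cells, averaged 38.1 ± 10.8 FPKM in untreated and 542 ± 27.1 FPKM in PLG samples. Flt3 rose from 0.113 ± 0.0422 to 2.097 ± 0.441 FPKM and Zbtb46 from 1.71 ± 0.385 to 6.40 ± 0.781 FPKM, both without overlap. Itgax fell from 270.2 ± 14.9 to 156 ± 6.59 FPKM and H2-Ab1 from 313 ± 35.0 to 248 ± 9.64 FPKM. Neutrophil markers summed to 7.49 to 18.1 FPKM in untreated and 14.8 to 23.2 FPKM in PLG samples. In the same order, mast cell and basophil markers summed to 0.712 to 3.90 and 2.88 to 4.24 FPKM. Fibroblast and endothelial markers summed to 5.83 to 7.13 and 5.48 to 6.70 FPKM. Most of the latter sum was Kdr, at 5.13 ± 0.405 and 4.85 ± 0.436 FPKM. T and NK cell markers summed to at most 0.779 FPKM, B cell markers to at most 0.893 FPKM and erythroid markers to at most 0.615 FPKM in any sample, and no measured marker was at 0 in all samples. In bulk RNA a change in the number of cells of a type and a change in RNA per cell cannot be told apart, and the part of these marker shifts in the results below was not tested.

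Of the 10 PARP genes 7 were higher and 1 was lower with PLG, and Parp1 and Tiparp did not pass. All 10 passed the expression filter of 1 FPKM in at least 5 samples. The test was limma on log2(FPKM + 1) over 9997 genes with Benjamini-Hochberg adjustment and a threshold of 0.05, which called 60.4% of all tested genes, 29.1% as higher and 31.3% as lower. The median log2 fold change was 1.17 over the 10 members and -0.02 over all tested genes. In 6 members all PLG samples lay above all untreated samples, which held for 22.7% of tested genes, and groups that did not overlap in either direction made up 47.2% of them. These 6 were also the members that rose by a log2 fold change of 1 or more, a size reached by 8.35% of tested genes. Fold changes below are differences in log2(FPKM + 1), so those of low genes are understated, and levels are FPKM as means ± SD over 5 samples. FPKM is scaled by gene length, which for the members is all annotated exonic bases. Levels of different genes are compared on that scale, and a gene whose expressed transcripts are shorter is understated by an unknown amount.

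**Figure D1:**
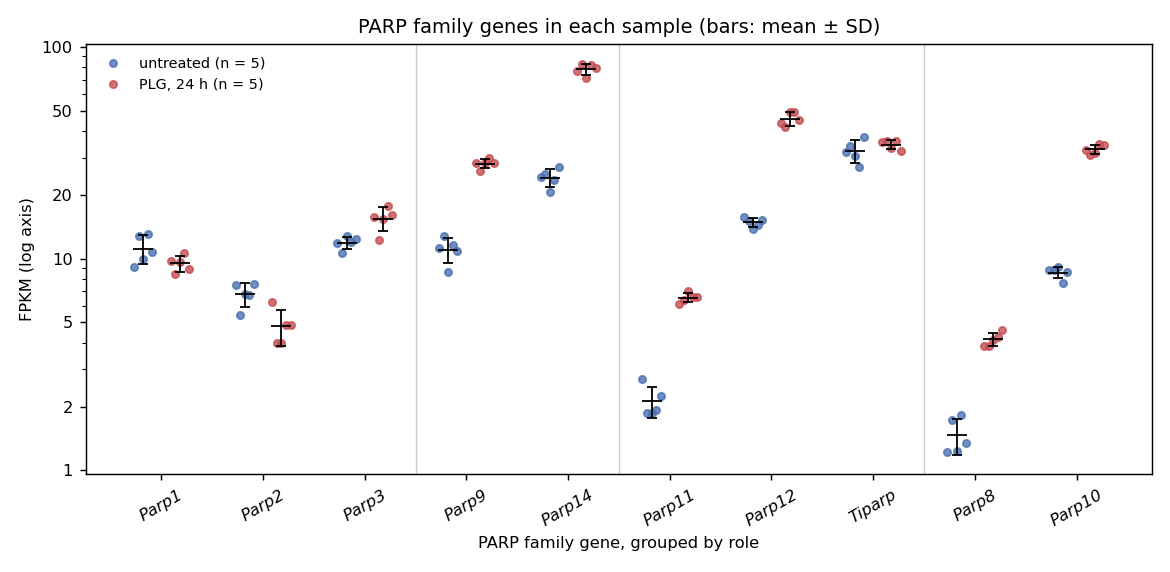
FPKM of the 10 PARP genes on a log axis, each point a sample (blue untreated, red PLG), with the mean and SD of 5 samples as black bars and grey lines between the role groups. The blue and red points are apart for Parp9, Parp14, Parp11, Parp12, Parp8 and Parp10, and overlap for Parp1, Parp2, Parp3 and Tiparp.

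The members that act at DNA breaks moved little and not together. Parp1 (ENSMUSG00000026496.11, chr1:180568924-180601254), the main sensor of DNA breaks, read 9.12, 12.8, 9.92, 13.0 and 10.8 FPKM in untreated samples 1 to 5 and 9.79, 8.44, 9.67, 10.6 and 8.95 FPKM in PLG samples 1 to 5. The groups overlapped, untreated 2 and 4 being the high samples. Its log2 fold change was -0.20 (SE 0.096, 95% interval -0.41 to 0.0054, limma adjusted p = 0.0855, two-sided exact permutation p = 0.0952). Without untreated 1 it passed as lower at -0.26 (limma adjusted p = 0.0249), and over its 17 alternatives the adjusted p ran from 0.0249 to 0.204.

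Parp2 (ENSMUSG00000036023.6, chr14:50807841-50821301), which shares the break-sensing role of Parp1, was the member that fell. It read 7.51, 5.41, 6.78, 6.71 and 7.57 FPKM in untreated samples and 6.24, 4.0, 4.0, 4.87 and 4.85 FPKM in PLG samples. PLG 1 lay above untreated 2, and the other PLG samples lay below every untreated sample. Its log2 fold change was -0.43 (SE 0.112, limma adjusted p = 0.00441, exact permutation p = 0.0159), from 6.79 ± 0.872 to 4.79 ± 0.918 FPKM.

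Parp3 (ENSMUSG00000023249.15, chr9:106470322-106476949), which acts in the repair of double-strand breaks, rose. It read 11.8, 10.6, 12.8, 12.0 and 12.3 FPKM in untreated samples and 15.8, 12.3, 15.4, 17.8 and 16.0 FPKM in PLG samples. PLG 2 lay within the untreated range and the other PLG samples above it. The log2 fold change was 0.34 (SE 0.084, limma adjusted p = 0.00306, exact permutation p = 0.0238), which puts the gene at the 77.6th percentile of fold changes over all tested genes.

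The macrodomain members rose, and Parp14 had the highest level of the 10 genes in PLG samples. Macrodomains are folds that bind ADP-ribose. Parp14 (ENSMUSG00000034422.14, chr16:35832874-35871544), known for its part in interleukin 4 and Stat6 signalling, read 24.4, 24.97, 20.7, 23.4 and 27.1 FPKM in untreated samples and 77.1, 83.0, 71.3, 82.0 and 79.7 FPKM in PLG samples. The lowest PLG sample stood well above the highest untreated one. The log2 fold change was 1.67 (SE 0.067, limma adjusted p = 9.65e-11), a plain ratio of means of 3.26, and 6937 to 52474 reads per sample stood behind it.

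Parp9 (ENSMUSG00000022906.15, chr16:35938470-35972605), which works in a complex with the ubiquitin ligase Dtx3l, read 11.2, 12.8, 8.67, 11.6 and 10.8 FPKM in untreated samples and 28.3, 25.9, 28.2, 29.9 and 28.2 FPKM in PLG samples. The groups did not overlap, and untreated 3 was the lowest sample. The change of Parp9 was 1.29 on the log2 scale (SE 0.082, limma adjusted p = 1.00e-08). Exons of Parp9 and Dtx3l share 458 bases on opposite strands in GENCODE M21, 9.40% of the exonic bases of Parp9. Without knowledge of the strand setting, reads in that stretch cannot be assigned to either gene.

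Parp12, Parp11 and Tiparp were grouped for their zinc fingers or WWE domain, a fold that binds ADP-ribose chains, and they divided. The grouping does not mean that members placed elsewhere lack these domains. Parp12 (ENSMUSG00000038507.6, chr6:39086410-39118349), a zinc finger member with known antiviral activity, read 15.8, 15.1, 13.8, 14.4 and 15.1 FPKM in untreated samples and 43.6, 41.8, 49.1, 49.4 and 45.3 FPKM in PLG samples. The groups stood far apart, and the spread within each was small, with a coefficient of variation of 5.08% and 7.31%. The change of Parp12 was 1.56 on the log2 scale (SE 0.058, limma adjusted p = 4.30e-11).

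Parp11 (ENSMUSG00000037997.12, chr6:127446840-127494261), with an interferon element core in the window above but none in that of its other start, was a low transcript at 2.69, 1.87, 1.87, 1.93 and 2.24 FPKM in untreated samples and 6.11, 6.37, 7.00, 6.61 and 6.62 FPKM in PLG samples. The PLG samples lay close together and above every untreated sample. The log2 fold change was 1.28 (SE 0.085, limma adjusted p = 1.59e-08), while the plain ratio of means, 3.09, equalled that of Parp12 to 3 digits. RefSeq gives Parp11 a second start site, and gene-level FPKM does not separate transcripts from either start.

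Tiparp (ENSMUSG00000034640.9, chr3:65528410-65555518) did not pass. It read 31.9, 34.0, 30.4, 27.1 and 37.6 FPKM in untreated samples and 35.5, 35.9, 33.1, 35.7 and 32.2 FPKM in PLG samples. The PLG samples lay within the untreated range. For Tiparp the log2 fold change was 0.10 (SE 0.075, 95% interval -0.06 to 0.27, limma adjusted p = 0.254), and -0.0098 with quantile normalization. An upward change of more than 0.27 lay outside the interval. Of its exonic bases 5.12% are shared with a pseudogene on the other strand.

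The remaining members, Parp10 and Parp8, both rose. Parp10 (ENSMUSG00000063268.12, chr15:76231174-76243441), which attaches lone ADP-ribose units and was first described as a partner of MYC, showed the largest log2 fold change of the 10 members. It read 8.79, 8.79, 9.08, 7.69 and 8.61 FPKM in untreated samples and 32.4, 30.9, 31.6, 34.6 and 34.5 FPKM in PLG samples. Each group was tight, and no PLG sample came near the untreated range. Its log2 fold change was 1.82 (SE 0.057, limma adjusted p = 8.32e-12), at the 96.5th percentile of all tested genes. Exons of Plec, a cytoskeletal linker gene on the same strand, share 4.80% of its exonic bases, and reads there are uncertain.

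Parp8 (ENSMUSG00000021725.9, chr13:116854820-117025537), a little studied member, had the lowest levels, at 1.22, 1.73, 1.238, 1.83 and 1.35 FPKM in untreated samples and 3.88, 3.88, 4.14, 4.28 and 4.59 FPKM in PLG samples. The groups did not overlap. The log2 fold change was 1.07 (SE 0.092, limma adjusted p = 2.32e-07) and rested on 396 to 2885 reads per sample. With a pseudocount of 0.1 it was 1.58 and with a pseudocount of 5 it was 0.50, both past the threshold. The plain ratio of means was 2.82. Exact permutation p-values of the 6 members without overlap were 0.00794, the smallest that groups of 5 and 5 allow.

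**Figure D2:**
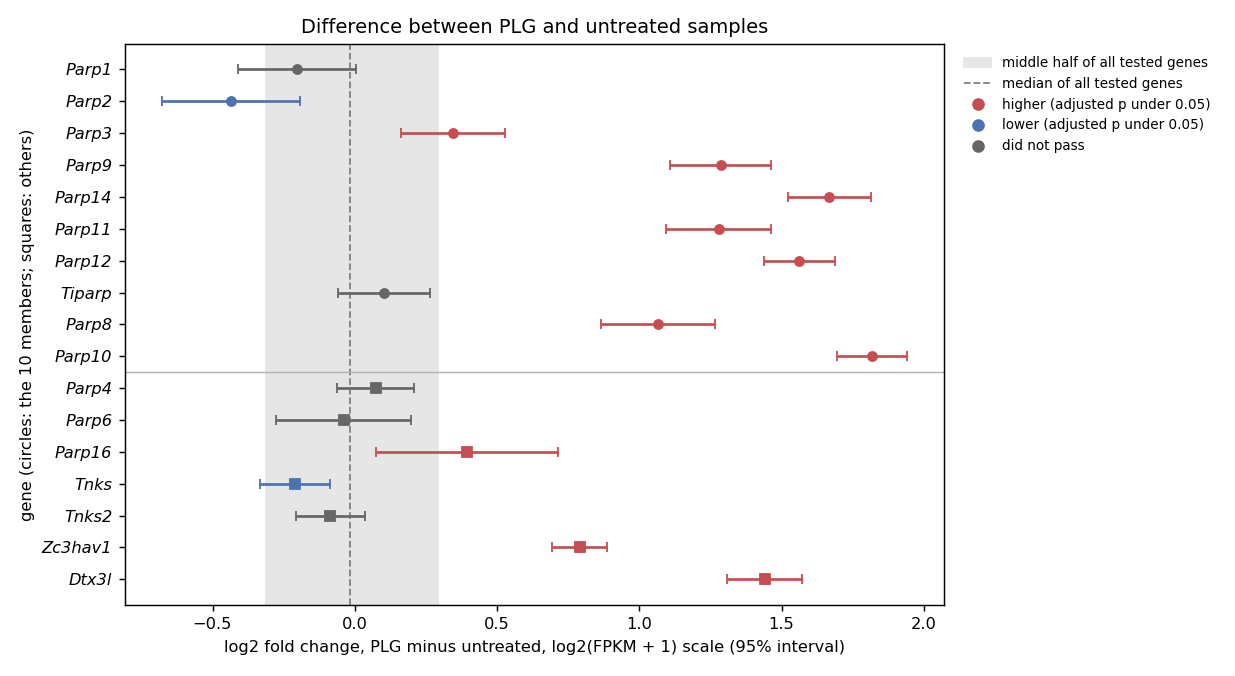
Log2 fold change (PLG minus untreated, log2(FPKM + 1) scale) with its 95% interval for the 10 members (circles), other family genes and Dtx3l (squares), over the middle quartiles of all tested genes (grey band, -0.31 to 0.29) and their median (dashed, -0.02). Parp8, Parp9, Parp10, Parp11, Parp12, Parp14 and Dtx3l lie beyond 1, while Parp1, Parp4, Parp6, Tnks2 and Tiparp did not pass.

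The order of FPKM levels among the members changed between the groups. In untreated samples Tiparp led at 32.2 ± 3.95 FPKM, followed by Parp14 at 24.1 ± 2.35 FPKM and Parp12 at 14.8 ± 0.754 FPKM. The sample ranges of Tiparp and Parp14 overlapped, although Tiparp was above Parp14 in 5 of 5 samples. Next came Parp3, Parp1, Parp9 and Parp10, from 11.9 ± 0.799 down to 8.59 ± 0.534 FPKM, and each overlapped the next. Parp2, Parp11 and Parp8 followed without overlap.

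In PLG samples Parp14 led at 78.6 ± 4.70 FPKM and Parp12 followed at 45.8 ± 3.35 FPKM, without overlap between them or with those below. Tiparp at 34.5 ± 1.69 FPKM and Parp10 at 32.8 ± 1.68 FPKM overlapped. Parp9, Parp3 and Parp1 followed at 28.1 ± 1.44, 15.5 ± 1.99 and 9.49 ± 0.836 FPKM, each apart from the next. Parp11 overlapped Parp2, and Parp2 overlapped Parp8.

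The summed FPKM of the 10 genes was 115 to 134 in untreated and 252.5 to 276 in PLG samples. Of this sum the DNA-break members Parp1, Parp2 and Parp3 made up 24.1% ± 1.81 in untreated and 11.4% ± 0.976 in PLG samples. The macrodomain members made up 28.2% ± 1.60 and 41.0% ± 1.41, with Parp14 alone at 19.4% ± 0.858 and 30.2% ± 1.74. The share of Tiparp was 25.9% ± 2.01 in untreated and 13.3% ± 0.720 in PLG samples. These shares are descriptions with no test, and they move together because they add to 100%.

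**Figure D3:**
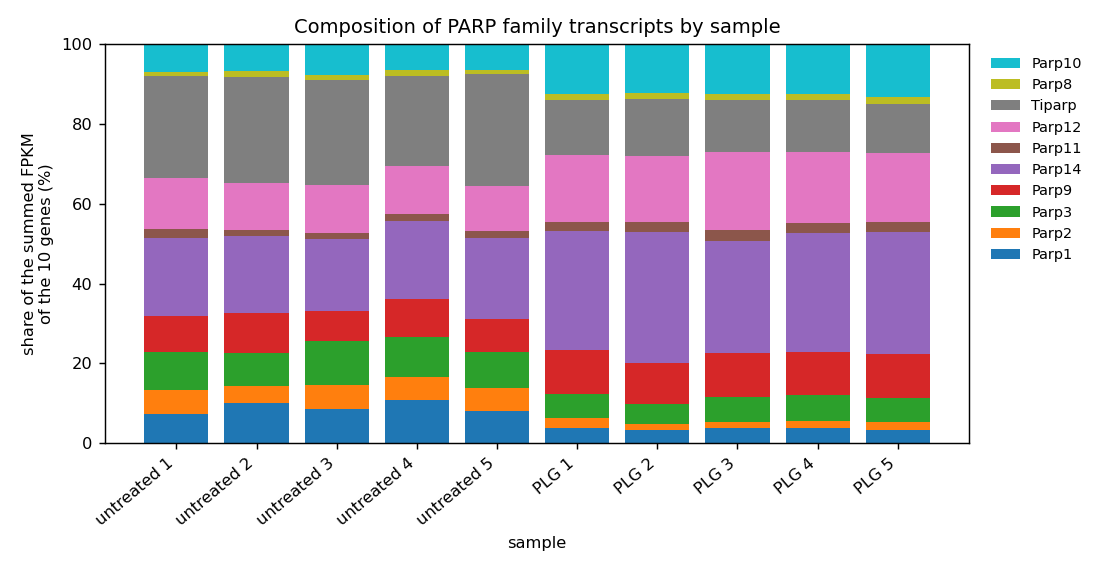
Share of the summed FPKM of the 10 genes taken by each gene (stacked colours, percent) in each of the 10 samples. The DNA-break members at the foot of each bar take 22.6% to 26.5% in untreated and 9.80% to 12.3% in PLG samples.

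Ratios of FPKM levels within a sample are given for 6 pairs of genes, chosen after their values were seen, as a description with no test. Parp14 stood at 2.20 ± 0.374 times Parp1 in untreated and 8.34 ± 1.013 times in PLG samples, and Parp10 at 0.790 ± 0.155 and 3.47 ± 0.272 times Parp1, both without overlap. The ratio of Parp14 to Parp9 was 2.21 ± 0.234 and 2.80 ± 0.251, and that of Parp12 to Parp10 was 1.73 ± 0.129 and 1.40 ± 0.0970. The ratio of Parp1 to Parp2 was 1.68 ± 0.469 and 2.02 ± 0.326. The ratio of Parp9 to Dtx3l was 0.652 ± 0.111 and 0.590 ± 0.0275, with the PLG samples inside the untreated range.

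Parp9, Dtx3l and Parp14 lie near each other on chromosome 16, so the genes within 200 kb of either member were examined. The table holds 12 of them, of which 8 were tested. Parp14, Dtx3l and Parp9 were higher and Slc49a4, a transporter gene, was lower, beside 29.1% and 31.3% of all tested genes. Kpna1, which encodes a nuclear import factor, Wdr5b, Fam162a and Ccdc58 did not pass. Dtx3l, the ubiquitin ligase partner of Parp9, read 17.7, 15.4, 15.7, 16.9 and 19.2 FPKM in untreated samples and 45.5, 46.4, 47.3, 49.2 and 50.0 FPKM in PLG samples, without overlap. Its log2 fold change was 1.44 (SE 0.061, limma adjusted p = 1.51e-10). Kpna1, the tested gene next to Parp9 on its other side, was at 10.4 ± 1.13 FPKM in untreated and 9.62 ± 0.412 FPKM in PLG samples (limma adjusted p = 0.237). Slc49a4 went from 7.36 ± 1.06 to 4.46 ± 0.908 FPKM (limma adjusted p = 5.04e-04). Ccdc58, at 2.92 ± 0.793 FPKM in untreated and 3.51 ± 0.729 FPKM in PLG samples, passed as higher without untreated 1 (limma adjusted p = 0.0445).

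**Figure D4:**
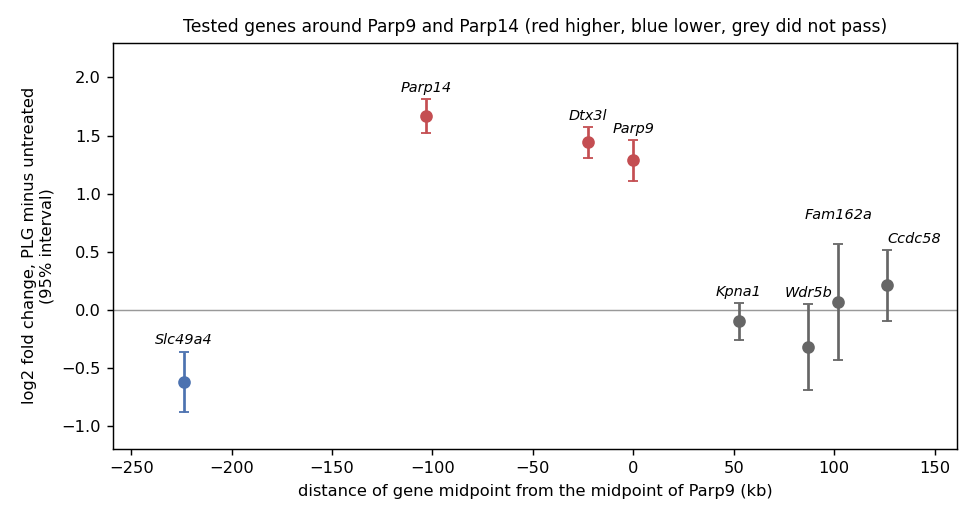
Log2 fold change with its 95% interval for the 8 tested genes around Parp9 and Parp14, by the distance of each gene's midpoint from that of Parp9 in kb. The higher genes Parp14, Dtx3l and Parp9 stand at 1.67, 1.44 and 1.29, and Slc49a4 at -0.62.

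Of 6 family genes outside the 10, 2 were higher, 1 was lower and 3 did not pass, beside 29.1% higher and 31.3% lower over all tested genes. Zc3hav1, the zinc finger antiviral protein also called Parp13, read 34.5 to 38.6 FPKM in untreated and 62.3 to 66.0 FPKM in PLG samples (log2 fold change 0.79, limma adjusted p = 2.78e-09). Parp16, a member of the endoplasmic reticulum membrane, was at 1.31 ± 0.464 and 2.01 ± 0.451 FPKM in overlapping groups (log2 fold change 0.39, limma adjusted p = 0.0337). The call on Parp16 was lost without any of untreated 3, untreated 5, PLG 1, PLG 3, PLG 4 and PLG 5, where the limma adjusted p ran from 0.0644 to 0.0861, and it was also lost with no filter and with the replicate block. Tnks, a tankyrase of Wnt signalling, fell from 11.01 ± 0.594 to 9.37 ± 0.376 FPKM (log2 fold change -0.21, limma adjusted p = 0.00553). Its relative Tnks2, at 20.7 ± 1.39 FPKM in untreated and 19.4 ± 0.8995 FPKM in PLG samples, did not pass, nor did Parp4 of the vault particle at 15.1 ± 1.07 and 15.9 ± 1.09 FPKM. Parp6, at 3.79 ± 0.724 and 3.64 ± 0.429 FPKM, also did not pass. The median log2 fold change of the list was 0.02, beside -0.02 over all tested genes.

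Among partners, readers and repair factors that work beside PARP proteins, 2 of 10 tested genes were higher, 1 was lower and 7 did not pass. Their median log2 fold change was 0.06. Over all tested genes 29.1% were higher and 31.3% lower, with a median of -0.02. Dtx3l was 1 of the higher genes. The other was Polb, the polymerase of base excision repair, from 3.62 ± 0.495 to 6.34 ± 0.588 FPKM (log2 fold change 0.67, limma adjusted p = 1.72e-05). Xrcc1, the repair scaffold that binds the chains made by Parp1, fell from 4.48 ± 0.451 to 2.25 ± 0.374 FPKM (log2 fold change -0.76, limma adjusted p = 1.14e-05). Hpf1, which steers Parp1 and Parp2 to serine residues, was at 4.38 ± 0.586 FPKM in untreated and 3.66 ± 0.5999 FPKM in PLG samples (limma adjusted p = 0.103), and passed as lower without untreated 2 (0.0435) or PLG 3 (0.0474).

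The ADP-ribose removal list holds enzymes that take ADP-ribose off and also pyrophosphatases of ADP-ribose. Of its 8 tested genes 2 were higher, 4 were lower and 2 did not pass, with a median log2 fold change of -0.07. Over all tested genes 29.1% were called higher and 31.3% lower. Adprh, which removes ADP-ribose from arginine, rose from 22.4 ± 1.35 to 34.4 ± 2.22 FPKM (limma adjusted p = 6.66e-07). Nudt9, an ADP-ribose pyrophosphatase, rose from 23.4 ± 2.57 to 37.2 ± 3.21 FPKM (limma adjusted p = 5.83e-06). The macrodomain hydrolase gene Macrod1 fell from 5.44 ± 1.94 to 1.85 ± 0.339 FPKM (limma adjusted p = 2.98e-04). Its untreated values reached from 2.36 to 7.66 FPKM, above the highest PLG value of 2.28 FPKM. Oard1, another macrodomain hydrolase, fell from 5.28 ± 0.557 to 4.01 ± 0.656 FPKM (limma adjusted p = 0.0109, and 0.0550 with voom on recovered reads). The other lower genes, named after their values were seen, were Adprhl2, which removes ADP-ribose from serine, from 8.80 ± 2.15 to 6.51 ± 1.37 FPKM (limma adjusted p = 0.0430), and Nudt5, an ADP-ribose pyrophosphatase, from 3.48 ± 0.227 to 2.87 ± 0.411 FPKM (limma adjusted p = 0.0466), both with overlap. The number of lower genes was 2 without untreated 1, untreated 4, PLG 1, PLG 2 or PLG 5 and 3 under median-of-ratios scaling, quantile normalization, voom or the replicate block. Parg, the main eraser of ADP-ribose chains, was at 8.38 ± 1.19 FPKM in untreated and 8.91 ± 1.15 FPKM in PLG samples and did not pass, nor did Nudt16 at 4.10 ± 1.39 and 4.75 ± 0.664 FPKM.

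Genes that supply or use NAD, the substrate of the family, were higher in 6 of 9 tested cases, lower in 1 and did not pass in 2. Their median log2 fold change was 0.32. Over all tested genes 29.1% were higher and 31.3% lower, with a median of -0.02. The number of higher genes ran from 5 to 7 over the alternatives. Cd38, an ectoenzyme that consumes NAD, read 5.17 to 7.73 FPKM in untreated and 73.0 to 78.3 FPKM in PLG samples (log2 fold change 3.39, SE 0.076, limma adjusted p = 3.80e-13). Its relative Bst1 rose from 58.3 ± 2.99 to 87.7 ± 4.12 FPKM (limma adjusted p = 1.78e-07). Nampt, the rate-limiting enzyme of NAD salvage, rose from 57.9 ± 5.31 to 90.9 ± 5.96 FPKM (limma adjusted p = 1.49e-06), and the NAD kinase Nadk rose from 35.5 ± 1.68 to 44.5 ± 3.94 FPKM (limma adjusted p = 5.12e-04). The lower gene, named after its value was seen, was the NAD synthetase gene Nadsyn1, from 2.96 ± 0.569 to 1.93 ± 0.215 FPKM (limma adjusted p = 0.00299). The NAD-dependent deacetylase Sirt1, at 5.74 ± 0.820 FPKM in untreated and 6.33 ± 0.399 FPKM in PLG samples (limma adjusted p = 0.216), passed as higher without untreated 2 (0.0421). Nmnat1, a nuclear NAD synthase, was at 2.62 ± 0.259 and 2.95 ± 0.294 FPKM and did not pass.

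Of 9 interferon signalling genes 8 were higher and 1 was lower, with a median log2 fold change of 0.92. Over all tested genes 29.1% were higher and 31.3% lower, with a median of -0.02. The transcription factor gene Stat2 rose from 22.5 ± 0.983 to 65.9 ± 2.75 FPKM (limma adjusted p = 7.88e-12). Irf9, its partner in the complex that binds interferon response elements, rose from 8.42 ± 1.23 to 18.6 ± 0.845 FPKM (limma adjusted p = 1.31e-07). Irf7, a regulator of interferon genes, rose from 4.502 ± 1.26 to 158 ± 7.98 FPKM (limma adjusted p = 9.54e-13). The gene that fell, named after its value was seen, was Ifngr1, a chain of the interferon gamma receptor, from 26.7 ± 2.48 to 15.0 ± 0.983 FPKM.

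In the aryl hydrocarbon receptor axis 3 of 5 tested genes were higher and 2 did not pass, with a median log2 fold change of 0.70. Over all tested genes 29.1% were higher and 31.3% lower, with a median of -0.02. The receptor gene Ahr read 11.3, 11.8, 11.9, 8.66 and 12.3 FPKM in untreated and 21.2, 22.5, 19.96, 20.5 and 20.6 FPKM in PLG samples (log2 fold change 0.86, limma adjusted p = 5.72e-07). Cyp1b1, a target gene that encodes a cytochrome P450, rose from 44.4 ± 3.68 to 90.8 ± 1.76 FPKM (limma adjusted p = 1.60e-09). Nqo1, a quinone reductase gene with regulators besides this receptor, rose from 75.9 ± 8.98 to 124 ± 12.7 FPKM (limma adjusted p = 8.46e-06). The repressor gene Ahrr, like Tiparp a target of the receptor, was at 10.9 ± 0.905 FPKM in untreated and 11.1 ± 0.554 FPKM in PLG samples. It did not pass. Cyp1a1, also on the list, was under the expression filter. It averaged 0.330 ± 0.256 FPKM in untreated and 0.239 ± 0.131 FPKM in PLG samples, with overlap. Arnt, the dimer partner, was at 7.73 ± 0.568 and 6.81 ± 0.632 FPKM (limma adjusted p = 0.0748) and passed as lower without untreated 4 (0.0359) or PLG 3 (0.0409) and with quantile normalization (0.0313).

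**Figure D5:**
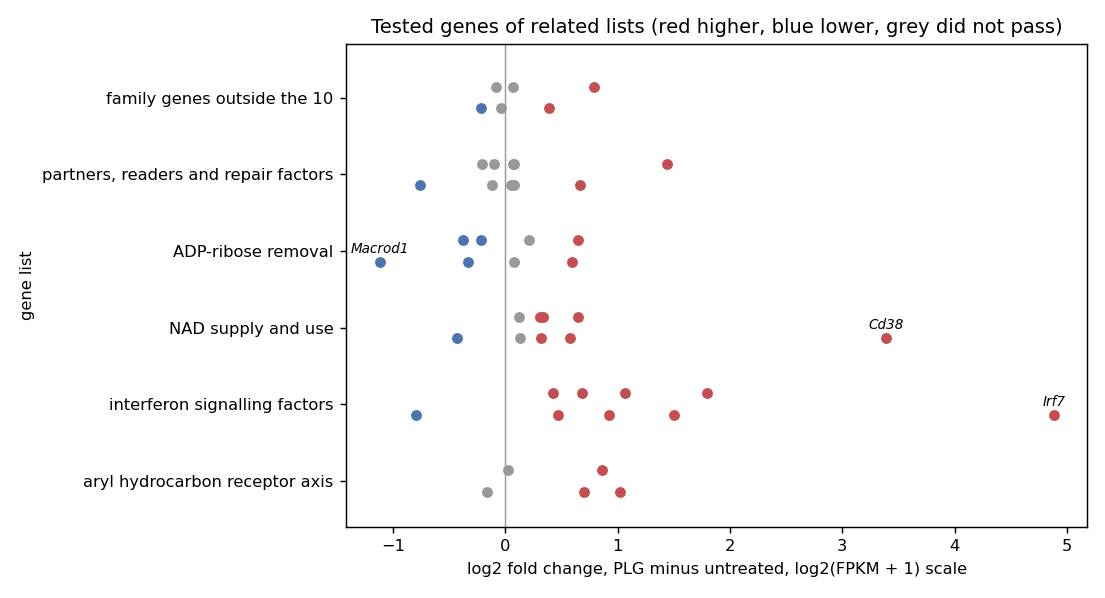
Log2 fold change (PLG minus untreated, log2(FPKM + 1) scale) of each tested gene in 6 related lists, red for higher, blue for lower and grey for genes that did not pass. Cd38 and Irf7 stand farthest to the right at 3.39 and 4.88, and Macrod1 farthest to the left at -1.12.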

How the data were processed

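Members and gene lists were chosen with earlier results of these data known. Expression was deposited as FPKM of protein-coding genes, with 3 decimals. Tools listed without a role in the submitters' processing notes were STAR 2.7.3a and featureCounts 2.0.0 besides cutadapt 2.10 and FastQC 0.11.9. DESeq2 1.24.0 was listed as well, and the build was GRCm38.p6. The strand setting of the authors' counting and its treatment of shared reads were not given in the sources used here. FPKM times gene length falls on whole multiples of a step per sample, which gave the reads. The step was the largest that fitted the low values. With a tolerance of 0.1 read, 100% of the 3134 to 7909 values tested per sample were whole at that step and 48.7% to 50.4% at 2 times that step, and 49.6% to 51.3% of the reads per gene were odd numbers. Depth limits low genes, since 1 read on 1 kb equals 0.0141 to 0.0313 FPKM.

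Groups and replicate numbers come from the sample titles. Values were analysed as log2(FPKM + 1) with limma 3.58.1 under R 4.3.3, in a model of treatment alone with an intensity trend and Benjamini-Hochberg adjustment over 9997 genes at 1 FPKM or more in at least 5 of 10 samples. Single genes also had a two-sided exact permutation test. In each related list the text names up to 4 genes with the smallest p and up to 2 abundant genes that did not pass, besides the members and the genes within 200 kb of Parp9 or Parp14. Alternatives were pseudocounts of 0.1 and 5, no filter, median-of-ratios scaling, quantile normalization, voom on recovered reads with trimmed-mean (TMM) scaling, a replicate block and leaving out each sample. Aplf, Macrod2, Nmnat2, Naprt and Cyp1a1 were under the filter. Adprhl2 is also called Adprs. Trbc2, Elane, Fcer1a, Hba-a1 and Hbb-bs were not analysed here, and some genes that the rule names are not reported here.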

Additional observations from a re-analysis of the deposited data

Results flagged for a closer look

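In the untreated group the Ahr level of untreated 4, at 8.66 FPKM, lay apart from the other untreated samples, which lay between 11.3 and 12.3 FPKM. The gap to the nearest sample was 0.724 of the group's range. Among 92 groups of 5 samples examined over the members and the other named genes this was the 1 that stood out. Chance alone flags about 1 group in every 20, so 1 flag among 92 groups is no more than chance gives.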

How the results depend on the processing

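In all 17 alternatives 7 members were higher with PLG, and the 8 members past the threshold kept their direction and their call. The count of changed genes over the table ran from 5462 to 6755, and from 5462 to 5895 with a sample left out. With quantile normalization Parp1 passed as lower at -0.25, which makes 2 lower members, Tiparp stood at -0.0098, Parp4 at -0.0032 and Ahrr at -0.026, 2 other family genes were lower, and 1 gene of the aryl hydrocarbon receptor axis was lower. With no filter 1 other family gene was higher, 2 repair and partner genes were lower, and 2 ADP-ribose removal genes were lower. Leaving out each sample gave 1 to 2 lower members, -0.26 to -0.15 for Parp1, 0.05 to 0.16 for Tiparp, 1 to 2 higher genes in the other family genes, 1 to 2 lower genes among repair factors and partners, 2 to 4 lower genes in ADP-ribose removal and 0 to 1 lower genes in the receptor axis. It also gave -0.010 to 0.053 for Ahrr and -0.10 to 0.20 for Fam162a. With the replicate block 5785 genes passed, and 1 other family gene was higher in place of 2, since Parp16 had an adjusted p of 0.0501. Whether equal replicate numbers mean paired samples is not known. Same-numbered samples correlated at -0.12 to 0.10 in their deviations and others at -0.12 to 0.17. No closer match of same-numbered samples was seen, which cannot exclude a pairing. The median log2 fold change of all tested genes was 0.02 with median-of-ratios scaling and -0.06 with quantile normalization. Depth limits Parp8 and Parp11 most, at 396 and 427 reads in their lowest samples.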
